A study of Mus musculus with 2 samples.

Results

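The nuclear-encoded respiratory chain genes are the genes of the nuclear genome whose products build the electron transport chain and the ATP synthase of the mitochondrial inner membrane. They were chosen by gene symbol: all symbols starting with Nduf, Uqcr or Atp5, all starting with Cox and a digit from 4 to 8, and Sdha, Sdhb, Sdhc and Sdhd, without pseudogene symbols. The rule took 93 of the 32285 genes listed in the count matrices. By their textbook place these are 36 genes of complex I, 4 of complex II, 8 of complex III, 19 of complex IV, 17 of complex V and 9 assembly factors. The symbol rule leaves out cytochrome c1 (Cyc1), a complex III subunit, cytochrome c (Cycs) and many assembly factors, which are given as separate lists. Within a cell class a gene counted as measured when it had at least 20 unique molecular identifiers (UMIs, tags that count each captured RNA molecule once) over both libraries.

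The cells came from brains of mice aged 18 months on a C57BL/6J background that were left untreated, perfused, and dissociated, after which cells carrying CD11b were enriched on magnetic particles. The first library is labelled KO, from mice lacking CD200R1 (CD200R1-/-), which dampens myeloid cells as an inhibitory receptor. The second is labelled WT. How many mice stand behind a library is not given in the sources used here. With 1 library per group no difference has a replicate check and no test was made. All intervals are 95% intervals for counting error only: exact Poisson for levels, conditional binomial for ratios and Clopper-Pearson for shares.

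Complexes I and II take electrons from NADH and succinate, complex III passes them to cytochrome c, complex IV passes them to oxygen, and complex V uses the resulting proton gradient to make ATP. Complex II is entirely nuclear-encoded, while the other complexes also hold subunits encoded by mitochondrial DNA. Several complex IV subunits have paralogs that are classically named after the heart, testis or lung, and the choroid plexus epithelium, which secretes cerebrospinal fluid, is known as a tissue rich in mitochondria.

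The KO-labelled library held 19159 barcodes with 131196245 UMIs, and the WT-labelled library 18228 barcodes with 127429919 UMIs. After filtering, 16935 KO-labelled and 16357 WT-labelled cells remained, with a median of 4167 and 4033 UMIs per cell, and 103 barcode sequences occurred in both libraries. Cd200r1, the targeted gene, had 12.0 counts per 1000000 UMIs (CPM, interval 11.3 to 12.6) in KO-labelled cells and 12.7 CPM (12.0 to 13.3) in WT-labelled cells. The deleted part of the gene is not given in the sources used here and the tag lies at the 3′ end of the transcript, so this value does not check the genotype, and every direction below rests on the labels. Clustering without the 93 genes among the variable genes gave 33 clusters, of which 9 could not be named from markers and held 35.8% of the KO-labelled and 41.5% of the WT-labelled cells. Described here are the 12 named classes of which each library held 50 or more cells. They include choroid plexus-like, mural-like, ependymal-like and other non-myeloid cells, for which CD11b, the marker used for selection, is not a defining marker.

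Among the genes with a RefSeq promoter entry (GRCm38.p6, 250 bases before to 50 after the start), both members of some paralog pairs were present, so their sequences can be set side by side. A pair is shown for COX8 and another for COX6B, since in both the second paralog was high in choroid plexus-like cells and low in most other classes. The Cox8b window lies at chr7:140900397-140900696 on the minus strand and the Cox8a window at chr19:7217567-7217866 on the minus strand. The Cox6b2 window lies at chr7:4753045-4753344 and the Cox6b1 window at chr7:30626065-30626364, both on the minus strand. Capitals mark matches to the motifs searched.
Cox8b: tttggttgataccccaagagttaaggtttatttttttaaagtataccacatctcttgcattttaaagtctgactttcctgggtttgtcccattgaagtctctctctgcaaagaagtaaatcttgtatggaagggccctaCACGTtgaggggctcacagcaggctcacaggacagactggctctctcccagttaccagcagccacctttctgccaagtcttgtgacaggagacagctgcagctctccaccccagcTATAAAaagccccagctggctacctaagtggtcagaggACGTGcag
Cox8a: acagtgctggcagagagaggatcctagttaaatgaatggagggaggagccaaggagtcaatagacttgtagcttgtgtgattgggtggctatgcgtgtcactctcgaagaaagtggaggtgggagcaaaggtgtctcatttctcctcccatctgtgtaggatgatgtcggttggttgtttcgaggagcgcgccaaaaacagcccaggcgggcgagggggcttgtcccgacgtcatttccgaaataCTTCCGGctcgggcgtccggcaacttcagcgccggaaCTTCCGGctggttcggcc
Cox6b2: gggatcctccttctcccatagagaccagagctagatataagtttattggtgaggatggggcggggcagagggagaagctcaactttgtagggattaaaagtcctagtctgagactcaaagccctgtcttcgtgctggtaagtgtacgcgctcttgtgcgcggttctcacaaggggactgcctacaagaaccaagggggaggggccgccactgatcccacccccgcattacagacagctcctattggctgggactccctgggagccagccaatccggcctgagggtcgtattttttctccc
Cox6b1: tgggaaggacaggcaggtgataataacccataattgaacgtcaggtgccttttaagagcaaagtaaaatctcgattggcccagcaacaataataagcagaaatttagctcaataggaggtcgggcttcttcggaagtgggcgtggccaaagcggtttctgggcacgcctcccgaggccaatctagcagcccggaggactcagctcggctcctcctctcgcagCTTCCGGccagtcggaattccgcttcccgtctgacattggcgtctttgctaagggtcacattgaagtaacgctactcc

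The Cox8b window held the letters of a TATA box (TATAAA) and 2 hypoxia response element cores (ACGTG, printed as CACGT where it lies on the other strand). Both TATAAA and the ACGTG nearest the end of that window lie after the annotated start. The Cox8a window held 2 ETS cores (CCGGAAG, printed as CTTCCGG). The Cox6b1 window held 1 ETS core and the Cox6b2 window none of the motifs. Over the 76 of 93 genes with an entry, the NRF1 core GCGCATGC was in 15.8% of windows against 2.8% of all 27025 windows. The ETS core was in 23.7% against 9.12%, and the YY1 core AAGATGG in 14.5% against 6.48%. The hypoxia core was in 23.7% against 19.7%, and the TATA box in 10.5% against 14.2%. Both strands were searched, and the median GC content was 58.5% in the windows of these genes and 52.7% over all windows. A match describes letters in the window and is not a shown binding site.

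Choroid plexus-like cells had the highest summed level of the 93 genes in both libraries. Microglia-like cells had the lowest in the KO-labelled and neutrophil-like cells the lowest in the WT-labelled library. In choroid plexus-like cells the summed level was 41143 CPM in the KO-labelled library and 48523 CPM in the WT-labelled library. Mural-like cells, the contractile cells of small vessels, followed with 26293 CPM (KO-labelled) and 26457 CPM (WT-labelled). Ependymal-like cells, the ciliated lining of the ventricles, had 23881 and 21037 CPM in the KO- and WT-labelled libraries, and fibroblast-like cells 22800 and 21394 CPM. Astrocyte-like cells had 18906 CPM (KO-labelled) and 19588 CPM (WT-labelled), and endothelial-like cells 18284 CPM (KO-labelled) and 17930 CPM (WT-labelled).

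The immune classes had lower summed levels. T cell-like cells had 17713 CPM in the KO-labelled and 16642 CPM in the WT-labelled library, monocyte-like cells 16526 and 15000 CPM, and B cell-like cells 14805 and 13318 CPM. CNS-associated macrophage-like cells had 12981 CPM (KO-labelled) and 12604 CPM (WT-labelled), and neutrophil-like cells 13686 and 10494 CPM. Microglia-like cells had 11780 CPM (KO-labelled) and 10974 CPM (WT-labelled). The highest class stood 3.49-fold above the lowest in the KO-labelled library and 4.62-fold in the WT-labelled library. With each cell weighted equally, or with cells thinned to 1000 UMIs, neutrophil-like cells came last and ependymal-like cells second by the mean of both libraries, where microglia-like cells came last and mural-like cells second with summed UMIs. The 9 unnamed clusters ranged from 13005 to 24182 CPM (KO-labelled) and from 11834 to 25254 CPM (WT-labelled). A level here is a share of all UMIs of a class, so a class with more other RNA shows a smaller share.

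**Figure D1:**
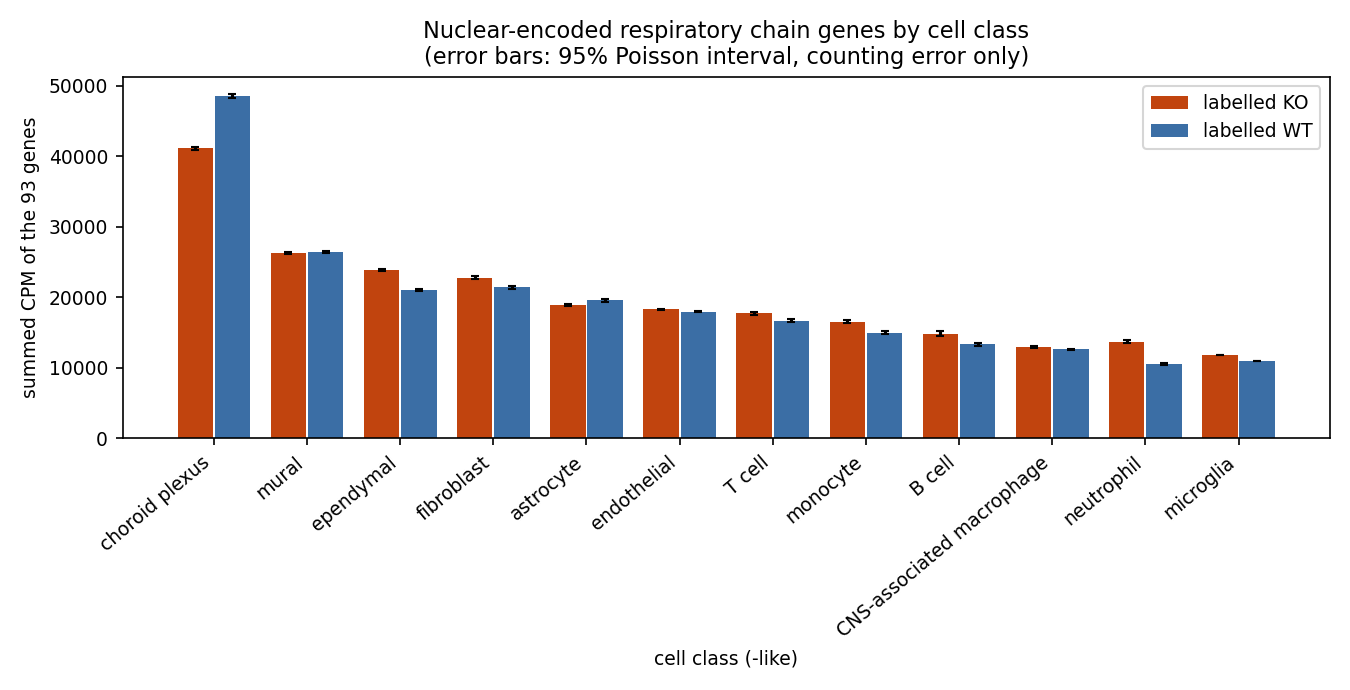
Summed level of the 93 genes in counts per 1000000 UMIs in each of 12 cell classes, labelled KO and labelled WT, with 95% Poisson intervals for counting error. Choroid plexus-like cells lie at 41143 CPM (labelled KO) and 48523 CPM (labelled WT), and microglia-like cells at 11780 and 10974 CPM.

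Of the 93 genes, 68 had their highest level in choroid plexus-like cells, 12 in mural-like and 6 in ependymal-like cells. The subunits of complexes I, III, IV and V kept similar shares between classes. Over all classes and both libraries, complex I genes gave 28.2% to 34.4% of the UMIs of the set, complex IV 25.03% to 30.9% and complex V 25.4% to 30.9%. Complex III gave 9.04% to 10.95%, complex II 1.09% to 2.57% and the assembly factors 1.11% to 4.05%. A 3′ tag counts a transcript once whatever its length. Whether different genes are captured equally well was not tested, so an order of genes or complexes describes their UMIs only.

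In microglia-like cells the complex IV subunit Cox4i1 had the highest level of its complex, with 555 CPM in the KO-labelled and 505 CPM in the WT-labelled library. Atp5e, the epsilon subunit of the ATP synthase, led complex V with 375 CPM (KO-labelled) and 336 CPM (WT-labelled). Uqcrh, the hinge protein of complex III, had 310 CPM (KO-labelled) and 288 CPM (WT-labelled). Ndufa13, an accessory subunit of complex I, had 214 and 186 CPM in the KO- and WT-labelled libraries. Sdha, the flavoprotein of complex II, had 92.3 CPM (KO-labelled) and 92.6 CPM (WT-labelled). So the leading gene of complex II lay well below the leading genes of the other complexes in both libraries.

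The lowest genes of each complex in microglia-like cells were Ndufs1, Sdhd, Uqcrfs1, Atp5g3 and Cox8c. Ndufs1, a core subunit of complex I, had 35.4 CPM (KO-labelled) and 33.0 CPM (WT-labelled). Sdhd, a membrane anchor of complex II, had 51.6 and 53.4 CPM in the KO- and WT-labelled libraries, and Uqcrfs1, the Rieske protein of complex III, had 55.9 and 58.1 CPM. Atp5g3, which encodes subunit c of the ATP synthase, had 77.2 CPM (KO-labelled) and 72.0 CPM (WT-labelled). Cox8c, a testis paralog, had 0 UMIs in every class. Cox8c and Cox7b2, with 2 KO-labelled and 1 WT-labelled UMI, were the 2 genes under the minimum in microglia-like cells. The gene just above it was Cox7a1, with 59 KO-labelled and 63 WT-labelled UMIs.

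The 6 genes with the widest difference between classes were all paralogs of complex IV or of subunit c. Ndufa4l2, a paralog of the complex IV subunit Ndufa4 known to be induced by hypoxia (chr10:127514967-127517154, plus strand, GRCm38), was a mural gene in these libraries. In mural-like cells it had 484 CPM in the KO-labelled and 553 CPM in the WT-labelled library, which was 52.2% and 58.4% of the UMIs of the Ndufa4 and Ndufa4l2 pair. In the other classes its share was at most 9.54% (KO-labelled) and 7.50% (WT-labelled).

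Cox4i2, the paralog of Cox4i1 first described in lung (chr2:152754173-152765037, plus strand), was high in the same class. It had 223 CPM in KO-labelled and 304 CPM in WT-labelled mural-like cells, a share of 18.01% (17.0% to 19.0%) and 24.8% (23.8% to 25.8%) of the pair. The other classes stayed at or below 2.31% (KO-labelled) and 2.38% (WT-labelled). Both mural paralogs were therefore lower in the KO-labelled library, Ndufa4l2 with a ratio of 0.875 (0.828 to 0.925) and Cox4i2 with 0.731 (0.676 to 0.791), while the summed set in that class had a ratio of 0.994. The broad partners were not lower: Ndufa4 had 442 CPM (KO-labelled) and 394 CPM (WT-labelled), and Cox4i1 1013 and 924 CPM. The mural-like class pooled clusters of 446, 444 and 473 KO-labelled and 592, 429 and 397 WT-labelled cells. The part of this mix in the ratios of the paralogs was not tested.

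Choroid plexus-like cells had the highest levels of Cox8b, Cox6b2 and Cox7a1, paralogs named after muscle, testis and heart. Other paralogs of this kind were not high there: the muscle paralog Cox6a2 had 3.83 CPM (KO-labelled) and 4.97 CPM (WT-labelled), and the testis paralogs Cox7b2 and Cox8c had 0 UMIs. Cox8b, the striated muscle form of COX8 (chr7:140898945-140900446, minus strand), had 360 CPM in the KO-labelled and 451 CPM in the WT-labelled library. That was 14.5% and 15.5% of the Cox8 family, against 0.686% to 3.03% in the other KO-labelled classes and 0.448% to 1.05% in the other WT-labelled classes. Cox6b2, the testis form of COX6B (chr7:4751792-4753094, minus strand), had 201 CPM (KO-labelled) and 236 CPM (WT-labelled), shares of 21.9% and 22.3%. It also reached 10.7% (KO-labelled) and 9.74% (WT-labelled) in fibroblast-like cells, and 8.91% and 7.22% in ependymal-like cells. Cox7a1, the heart form of COX7A (chr7:30184144-30186078, plus strand), had 78.7 CPM (KO-labelled) and 97.0 CPM (WT-labelled), or 7.64% and 8.22% of its family.

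Subunit c of the ATP synthase is made from 3 genes with different targeting sequences and the same mature protein. Atp5g1 (chr11:96068852-96075670, minus strand) had 1308 CPM in KO-labelled and 1612 CPM in WT-labelled choroid plexus-like cells, 61.3% and 63.7% of the 3 genes. In the other classes it gave 26.4% to 34.5% (KO-labelled) and 25.6% to 31.3% (WT-labelled), and Atp5g2 was the leading gene there. The level of Atp5g1 in choroid plexus-like cells lay 2.65 above that of the median class on the log2 (CPM + 10) scale, taking the lower of the 2 libraries. The same difference was 4.68 for Ndufa4l2 and 3.85 for Cox4i2 in mural-like cells. In choroid plexus-like cells it was 4.48 for Cox8b, 3.52 for Cox6b2 and 2.58 for Cox7a1.

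Ndufa4, Ndufa1, Ndufa11 and Atp5md completed the 10 genes with the widest class difference, all with their highest level in choroid plexus-like cells. Ndufa4 had 1664 CPM (KO-labelled) and 1973 CPM (WT-labelled) there, and Ndufa1, an accessory subunit of complex I, 737 and 825 CPM. Ndufa11, also an accessory subunit of complex I, had 656 CPM (KO-labelled) and 753 CPM (WT-labelled). Atp5md, a small membrane subunit of complex V, had 851 and 984 CPM in the KO- and WT-labelled libraries.

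In some myeloid classes and B cell-like cells another muscle paralog had a larger share of its family. Cox6a2, the striated muscle form of COX6A (chr7:128205435-128206387, minus strand), gave 13.8% of the Cox6a pair in KO-labelled and 16.3% in WT-labelled microglia-like cells. Its share was 11.6% (KO-labelled) and 15.1% (WT-labelled) in B cell-like cells, 9.29% and 9.96% in CNS-associated macrophage-like cells, and 7.96% and 10.5% in neutrophil-like cells. In endothelial-like cells it was 1.08% (KO-labelled) and 1.17% (WT-labelled). Its level in microglia-like cells was 25.1 CPM (KO-labelled) and 27.3 CPM (WT-labelled). The B cell-like shares rest on 13 KO-labelled and 28 WT-labelled UMIs and the neutrophil-like ones on 18 and 42. Microglial markers were at 18749 CPM (KO-labelled) and 18363 CPM (WT-labelled) in microglia-like cells. They were at 11696 and 9481 CPM in CNS-associated macrophage-like, 10923 and 10996 CPM in neutrophil-like, and 2373 and 2531 CPM in B cell-like cells. The part of microglial RNA in these shares was not tested.

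Cox7a2l, a COX7A-related protein of respiratory supercomplexes, gave 57.2% (KO-labelled) and 59.5% (WT-labelled) of the Cox7a family in microglia-like cells but 18.3% and 16.9% in choroid plexus-like cells. Cox7b2, the testis form of COX7B, passed the minimum in astrocyte-like cells alone, where it had 6.77 CPM (KO-labelled) and 8.45 CPM (WT-labelled), 2.95% and 3.29% of its pair.

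**Figure D2:**
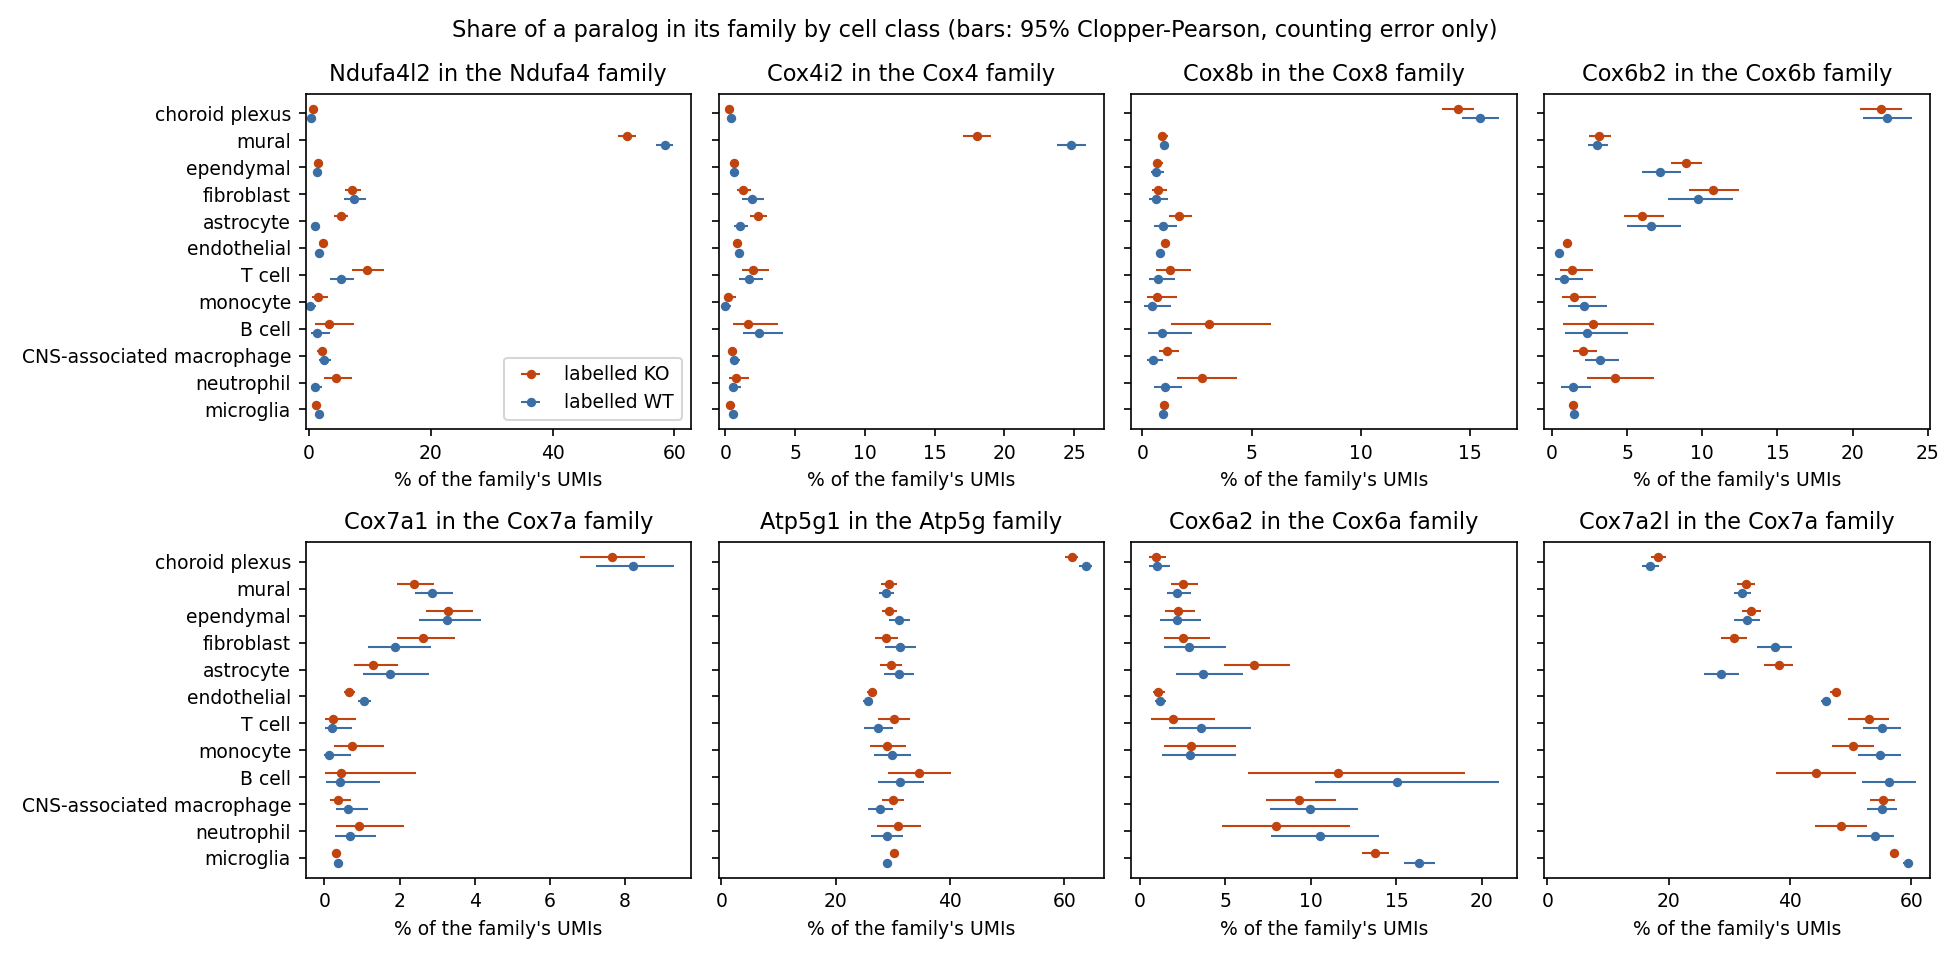
Share of paralogs in the UMIs of their family, in percent, in each of 12 cell classes, labelled KO and labelled WT, with 95% Clopper-Pearson intervals. Ndufa4l2 stands out in mural-like cells (52.2% labelled KO, 58.4% labelled WT) and Atp5g1 in choroid plexus-like cells (61.3% and 63.7%).

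The comparison of the KO-labelled with the WT-labelled library asks how these genes differ in mice without CD200R1, class by class. A gene was counted as higher or lower when the ratio of (KO-labelled CPM + 10) to (WT-labelled CPM + 10) was at least 1.3-fold. This added constant makes the log2 ratio of low genes smaller than that of their CPM. The highest and lowest genes of a class are named by this ratio, among genes with at least 50 UMIs over both libraries in that class, while the ratios printed with intervals are of CPM without the constant. The median log2 ratio of the genes was positive in 9 of the 12 classes, as was the summed level, and both were negative in choroid plexus-like, mural-like and astrocyte-like cells. The sign of the summed ratio held in 16 of 16 alternative settings in choroid plexus-like cells, in 12 of 16 in mural-like and in 11 of 16 in astrocyte-like cells. With cells named one by one from their own markers the summed ratio was 1.01 in mural-like cells and 1.25 in astrocyte-like cells. The largest shifts were in neutrophil-like cells, upward, and in choroid plexus-like cells, downward.

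In microglia-like cells, the class with the most cells (4034 KO-labelled and 3522 WT-labelled), none of the 91 measured genes passed the fold in either direction. Over all genes 0.866% were higher and 0.841% lower. The summed ratio was 1.07 (1.07 to 1.08) and the median log2 ratio 0.09 (0.00 over all genes), with 77 genes above 0 and 14 below. By complex the ratio was 1.08 for complex I, 1.01 for complex II, 1.06 for complex III, 1.08 for complexes IV and V, and 1.02 for the assembly factors.

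The gene with the highest ratio in microglia-like cells was Ndufa11 (chr17:56717767-56722141, plus strand), with 90.5 CPM (KO-labelled) and 73.5 CPM (WT-labelled), a ratio of 1.23 (1.17 to 1.29). Ndufa13 followed at 1.15 in the order with the added constant, then Atp5h, subunit d of the ATP synthase, with 266 and 233 CPM in the KO- and WT-labelled libraries. Ndufa4 had 249 CPM (KO-labelled) and 219 CPM (WT-labelled), and Ndufb4, an accessory subunit of complex I, 120 and 105 CPM. Without the constant Ndufaf5, an assembly factor of complex I with 8.10 CPM (KO-labelled) and 6.68 CPM (WT-labelled), lay above Ndufa13 with a ratio of 1.21 (1.03 to 1.43). At least 50% of the 60-base words in the last 500 bases of Atp5h, Atp5l, Atp5o and Ndufs3 also occur in another annotated gene, so the counts of these 4 genes are less certain.

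With 10 CPM added to both levels, the lowest ratio belonged to Ndufaf7, an assembly factor of complex I, with 38.3 CPM (KO-labelled) and 42.4 CPM (WT-labelled), a ratio without the added CPM of 0.904 (0.843 to 0.969). Cox4i2 had 1.66 and 2.63 CPM in the KO- and WT-labelled libraries, and Ndufa4l2 3.15 and 3.93 CPM. The ratio of Cox6a2 was 0.921 (0.844 to 1.00). The summed ratio of the 93 genes moved with depth: in microglia-like cells of 500 to 2000 UMIs it was 0.799 (179 KO-labelled and 275 WT-labelled cells). In cells of 2000 to 5000 UMIs it was 0.985, in cells of 5000 to 10000 UMIs 1.07 and in deeper cells 1.08. KO-labelled microglia-like cells had a median of 6804.5 UMIs and WT-labelled ones 8213 UMIs, and the part of depth in the ratio was not tested.

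CNS-associated macrophage-like cells, the macrophages of the brain's borders and vessels, numbered 439 KO-labelled and 341 WT-labelled cells. None of their 90 measured genes passed the fold, while 3.22% of all genes were higher and 6.4% lower. The summed ratio was 1.03 (1.02 to 1.04), the median log2 ratio 0.03, and the complexes lay between 1.01 and 1.05. Among genes with at least 50 UMIs, the highest ratios were those of Ndufaf6, Ndufa13, Ndufa9, Cox6a1 and Ndufa12, and Cox8b, with 26 KO-labelled and 8 WT-labelled UMIs, lay above them. Ndufaf6, an assembly factor of complex I, had 13.5 CPM (KO-labelled) and 9.09 CPM (WT-labelled) from 58 and 30 UMIs, and Ndufa13 had 241 and 210 CPM. Ndufa9 had 62.8 CPM (KO-labelled) and 53.7 CPM (WT-labelled), Cox6a1 173 and 151 CPM, and Ndufa12 82.4 and 71.2 CPM. The intervals of Ndufaf6 (0.942 to 2.40), Ndufa9 (0.964 to 1.42) and Ndufa12 (0.977 to 1.37) included 1.

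The lowest ratios in CNS-associated macrophage-like cells were those of Cox6b2, Atp5a1, Ndufc1, Atp5md and Sdha. Atp5a1, the alpha subunit of the ATP synthase, had 188 CPM (KO-labelled) and 222 CPM (WT-labelled), a ratio of 0.848 (0.767 to 0.939). Cox6b2 had 6.77 CPM (KO-labelled) and 10.0 CPM (WT-labelled), and its interval of 0.396 to 1.15 included 1. Ndufc1 had 98.2 and 106 CPM in the KO- and WT-labelled libraries, Atp5md 147 and 158 CPM, and Sdha 81.2 and 87.3 CPM, and those 3 intervals included 1. Microglial markers were at 11696 CPM in the KO-labelled and 9481 CPM in the WT-labelled cells of this class, against 18749 and 18363 CPM in microglia-like cells. Without cells holding at least 0.5% microglial marker UMIs the summed ratio was 1.01 and the median log2 ratio -0.01. With cells thinned to 1000 UMIs the summed ratio was 0.957.

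Neutrophil-like cells showed the largest difference of the 12 classes. They had 89 KO-labelled and 177 WT-labelled cells, and 38 of the 87 measured genes were higher and 0 lower in the KO-labelled library. Over all genes 9.97% were higher and 21.7% lower. The summed ratio was 1.304 (1.28 to 1.33), and the median log2 ratio was 0.35 against -0.08 over all genes, with 9 genes below 0. The higher genes were 16 of complex I, 3 of complex III, 9 of complex IV, 8 of complex V and 2 assembly factors. Complex I had a ratio of 1.34 (1.29 to 1.38), complex III 1.32, complex IV 1.35 and complex V 1.27. Complex II had a ratio of 0.989 (0.856 to 1.14) and no gene past the fold. Sdha had 80.0 CPM (KO-labelled) and 78.1 CPM (WT-labelled), and Sdhb, the iron-sulfur subunit, 72.0 and 73.1 CPM.

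Among genes with at least 50 UMIs in neutrophil-like cells, Ndufa11 had the highest ratio, with 116 CPM (KO-labelled) and 65.0 CPM (WT-labelled), a ratio of 1.79 (1.42 to 2.26). Cox7b had 178 CPM (KO-labelled) and 107 CPM (WT-labelled), and Ndufb7 199 and 121 CPM. Ndufab1, the mitochondrial acyl carrier protein, had 107 CPM (KO-labelled) and 63.1 CPM (WT-labelled). These 3 genes are named here after their values were seen. The lowest was Ndufaf7, with 38.2 CPM (KO-labelled) and 48.8 CPM (WT-labelled), and its interval of 0.540 to 1.11 included 1. Ndufa4l2, Cox6b2 and Cox8b, counted among the 38, rested on 16, 15 and 17 KO-labelled and 5, 9 and 12 WT-labelled UMIs.

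Several measures moved with this result. In cells of 2000 to 5000 UMIs the summed ratio was 0.904 (0.832 to 0.982), in cells of 5000 to 10000 UMIs 1.11 and in deeper cells 1.39 (1.36 to 1.42), from 37 KO-labelled and 67 WT-labelled cells. Neutrophil granule genes were higher in the KO-labelled cells: Ngp had 5098 CPM (KO-labelled) and 2852 CPM (WT-labelled), Camp 5106 and 2726 CPM, and Ltf 1301 and 628 CPM. The cytokine Il1b had 264 CPM (KO-labelled) and 1031 CPM (WT-labelled), and Csf3r, the receptor of the neutrophil growth factor G-CSF, 372 and 786 CPM. Retnlg, a gene of mature neutrophils, had 8859 CPM (KO-labelled) and 6634 CPM (WT-labelled), and Mmp9, a granule protease of mature neutrophils, 476 and 430 CPM. Among the other neutrophil markers, S100a8 had 52038 CPM (KO-labelled) and 34434 CPM (WT-labelled), and S100a9 53185 and 36491 CPM. Cxcr2 had 211 CPM (KO-labelled) and 248 CPM (WT-labelled). The proliferation genes Mki67 and Top2a had 13 and 15 KO-labelled and 47 and 57 WT-labelled UMIs, with ratios of 0.639 (0.317 to 1.201) and 0.608 (0.320 to 1.09). Microglial markers were at 10923 and 10996 CPM in the KO- and WT-labelled cells, against 18749 and 18363 CPM in microglia-like cells. Choroid plexus markers differed more, with 6346 CPM in the KO-labelled and 1846 CPM in the WT-labelled cells. Cells with at least 0.5% microglial marker UMIs were 37 of the 89 KO-labelled and 64 of the 177 WT-labelled cells. They had a median of 15815 UMIs (KO-labelled) and 27778.5 UMIs (WT-labelled), against 5050 and 4877 UMIs in the other cells of the class. Without these marker-rich cells the summed ratio was 1.21, with 26 genes higher and 5 lower. With each cell weighted equally it was 1.11, with 15 genes higher and 3 lower. The part of depth, maturation stage and foreign RNA in the ratio was not tested.

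**Figure D3:**
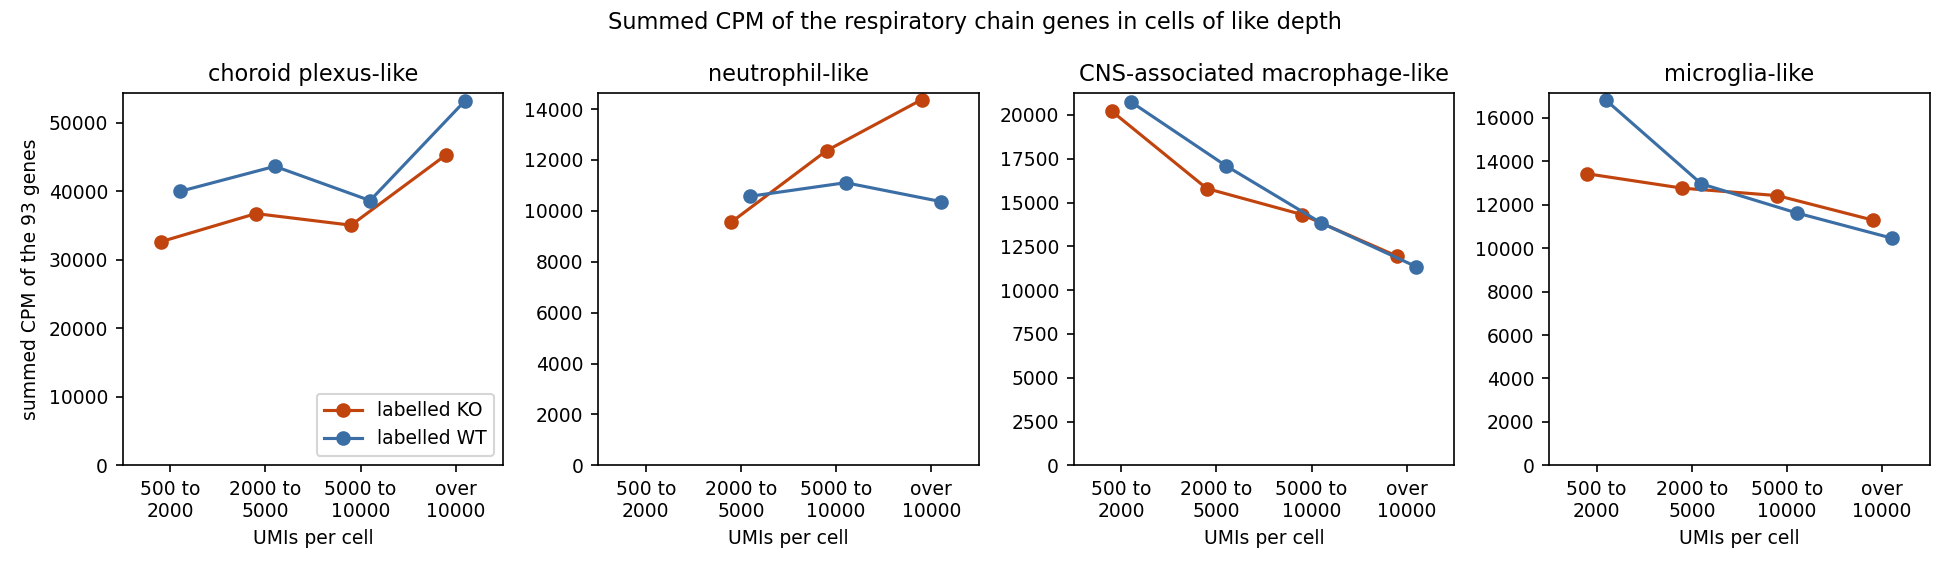
Summed level of the 93 genes in CPM, labelled KO and labelled WT, in cells of 4 classes grouped by their total UMIs. In neutrophil-like cells the level is 9560 CPM (labelled KO) and 10575 CPM (labelled WT) in cells of 2000 to 5000 UMIs, and 14372 and 10367 CPM in the deepest cells, while choroid plexus-like cells labelled KO lie below those labelled WT in every depth group.

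In choroid plexus-like cells the genes were lower in the KO-labelled library. The class held 589 KO-labelled and 438 WT-labelled cells, and 11 of the 91 measured genes were lower and 0 higher, while 7.22% of all genes were lower and 2.37% higher. The summed ratio was 0.848 (0.841 to 0.854), the median log2 ratio -0.21 against -0.07 over all genes, and 87 genes lay below 0. The ratio was 0.889 for complex I, 0.807 for complex II, 0.811 for complex III, 0.846 for complex IV and 0.823 for complex V.

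Atp5k, subunit e of the ATP synthase (chr5:108433244-108434448, minus strand), had the lowest ratio in choroid plexus-like cells, with 417 CPM (KO-labelled) and 638 CPM (WT-labelled), a ratio of 0.654 (0.609 to 0.703). The other 10 lower genes, named here because they passed the fold, were Ndufa9, Ndufs6, Ndufv1, Sdhd, Uqcr11, Uqcrq, Cox5b, Cox6c, Cox7b and the assembly factor Ndufaf7. Ndufv1, the NADH-binding core subunit of complex I, had 77.3 CPM (KO-labelled) and 115 CPM (WT-labelled). Sdhd had 89.6 and 128 CPM in the KO- and WT-labelled libraries, and Uqcrq, a small subunit of complex III, 601 and 820 CPM. Cox5b had 579 CPM (KO-labelled) and 781 CPM (WT-labelled), and Cox6c 1666 and 2196 CPM. The highest ratio was that of Ndufa4l2, with 12.6 CPM (KO-labelled) and 8.29 CPM (WT-labelled), whose interval of 0.879 to 2.71 included 1.

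The lower level was seen in both choroid plexus-like clusters, with a ratio of 0.885 in the larger (541 KO-labelled and 417 WT-labelled cells) and 0.821 in the smaller, deeper one (48 and 21 cells). It was below 1 at every depth, between 0.816 and 0.907. Ttr, transthyretin, the main secreted product of this epithelium, had 341029 CPM in the KO-labelled and 293010 CPM in the WT-labelled cells, and a larger Ttr share leaves a smaller share for all other genes. With Ttr UMIs left out of the total the summed ratio was 0.910, with 4 genes lower and 1 higher. With a stricter filter on cells (1000 genes, 2000 UMIs and at most 5% mitochondrial UMIs) 30 genes were lower. Other markers of the class went both ways. Folr1 had 856 CPM (KO-labelled) and 877 CPM (WT-labelled), and Clic6 261 and 302 CPM. Kl had 439 CPM (KO-labelled) and 409 CPM (WT-labelled), and Kcne2 272 and 249 CPM. Enpp2, a secreted phospholipase that was not among the markers used for naming, had 9543 CPM (KO-labelled) and 7936 CPM (WT-labelled).

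**Figure D4:**
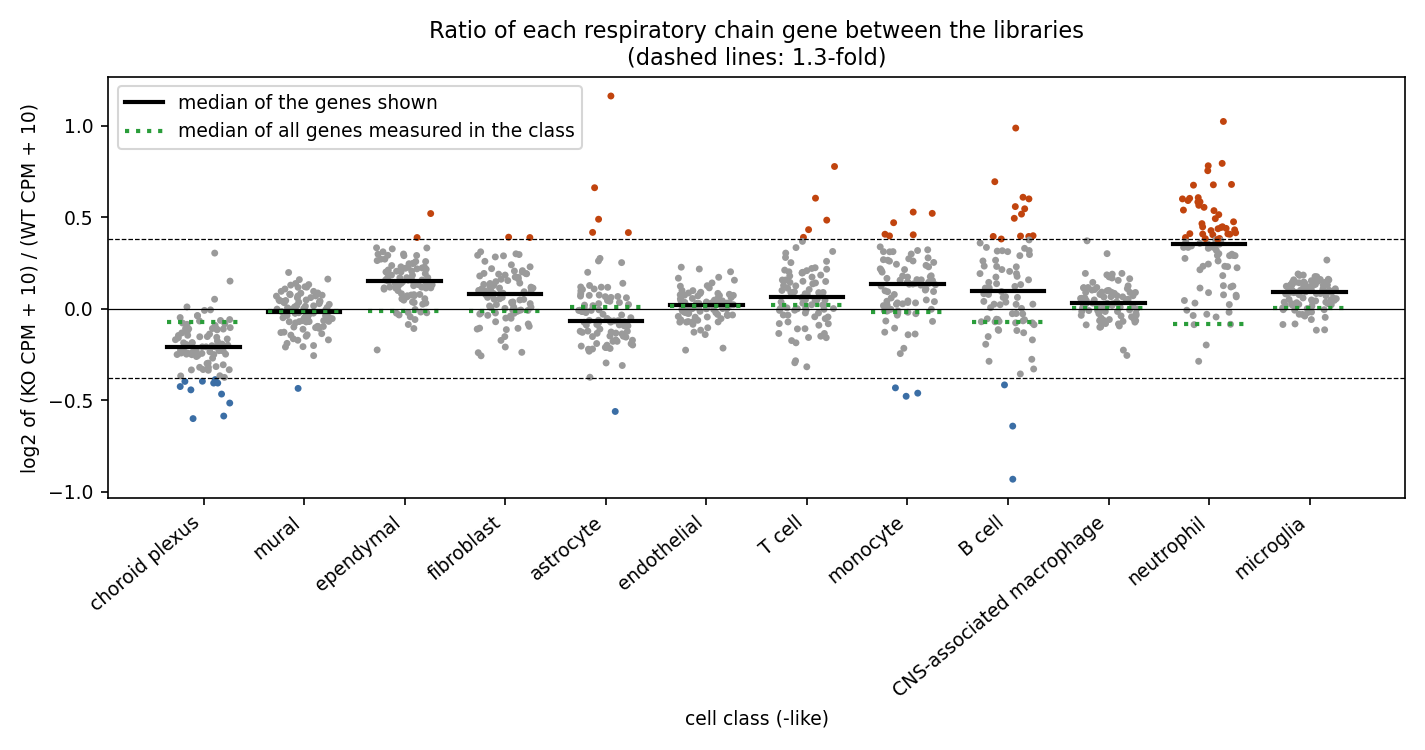
Log2 ratio of (labelled KO CPM + 10) to (labelled WT CPM + 10) of each measured gene in each of 12 cell classes. Red points are at least 1.3-fold higher, blue points at least 1.3-fold lower and grey points between, black lines are medians of the genes shown, and green dotted lines are medians of all genes. Neutrophil-like cells have 38 higher and 0 lower genes, and choroid plexus-like cells 0 higher and 11 lower.

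In each of the other classes at most 13 genes were higher and at most 3 lower, and these counts moved with the processing. In ependymal-like cells (892 KO-labelled and 368 WT-labelled cells) 2 of 91 genes, Cox6b2 and Atp5l, were higher and 0 lower, against 2.23% and 2.87% of all genes. The summed ratio was nevertheless 1.14 (1.12 to 1.15), with a median log2 ratio of 0.15 and 11 genes below 0. Cox6b2 had 51.3 CPM (KO-labelled) and 32.8 CPM (WT-labelled), a ratio of 1.57 (1.25 to 1.97). With cells thinned to 1000 UMIs 18 genes were higher in this class, but thinning also left out 414 KO-labelled and 136 WT-labelled cells of it. Sdhd was lowest with 47.4 CPM (KO-labelled) and 57.1 CPM (WT-labelled), and its interval of 0.686 to 1.01 included 1.

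In mural-like cells 0 of 91 genes were higher and 1, Cox4i2, lower, against 2.82% and 2.13% of all genes. The highest ratio was that of Ndufaf8, an assembly factor of complex I, with 65.9 CPM (KO-labelled) and 56.2 CPM (WT-labelled). In endothelial-like cells 0 of 91 genes passed the fold in either direction, against 1.3% of all genes higher and 0.923% lower, and the summed ratio was 1.02, or 0.979 with cells named one by one from their own markers. The extremes were Ndufa4l2 with 12.8 CPM (KO-labelled) and 9.51 CPM (WT-labelled), and Ndufa8, an accessory subunit of complex I, with 186 and 219 CPM.

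In fibroblast-like cells 2 of 91 genes, Ndufs1 and Cox5a, were higher and 0 lower, against 6.98% and 8.29% of all genes. Ndufs1 had 51.7 CPM (KO-labelled) and 37.0 CPM (WT-labelled), and Cox7a2l was lowest with 212 and 255 CPM. The summed ratio there was 1.07, and 0.960 with the stricter filter on cells. In fibroblast-like cells 12 genes were higher with each cell weighted equally, and 10 lower with cells thinned to 1000 UMIs. In astrocyte-like cells 5 of 92 genes were higher and 1 lower, against 11.9% and 9.36% of all genes, with a summed ratio of 0.965 (0.953 to 0.978). Without the cells richest in microglial markers that ratio was 1.04, and the part of these cells in its direction was not tested. With cells named one by one it was 1.25, with a median log2 ratio of 0.29 and 28 genes higher, and with cells thinned to 1000 UMIs 11 genes were lower. By depth the ratio in astrocyte-like cells was 1.26 (1.223 to 1.296) in cells of 5000 to 10000 UMIs and 0.889 (0.875 to 0.903) in deeper cells. The 5 higher genes were Ndufa4l2, Cox4i2, Cox6a2, Cox8b and Cox7a2l, and the lower gene was Atp5k, with 248 CPM (KO-labelled) and 371 CPM (WT-labelled).

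Ndufa4l2 in astrocyte-like cells had 24.2 CPM in the KO-labelled and 5.28 CPM in the WT-labelled library, from 75 and 10 UMIs. Mural markers were at 876 CPM (KO-labelled) and 249 CPM (WT-labelled) in the same cells, and their part in this ratio was not tested. In T cell-like cells 5 of 87 genes were higher and 0 lower, against 10.4% and 8.49% of all genes, and the summed ratio was 1.06. Thinned to 1000 UMIs, the T cell-like cells had 16 higher and 7 lower genes. Ndufa4l2 was highest there too, with 39.4 CPM (KO-labelled) and 18.9 CPM (WT-labelled) beside 843 and 703 CPM of mural markers, and Sdhd was lowest with 50.5 and 65.3 CPM.

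In monocyte-like cells 6 of 85 genes were higher and 3 lower, against 9.9% and 11.4% of all genes, and the summed ratio was 1.102 (1.08 to 1.12). Ndufaf7 was highest with 68.8 CPM (KO-labelled) and 44.7 CPM (WT-labelled), and Ndufaf2, an assembly factor of complex I, lowest with 18.9 and 30.3 CPM. In B cell-like cells 13 of 83 genes were higher and 3 lower, against 15.1% and 23.7% of all genes, and the summed ratio was 1.11 (1.08 to 1.14). Ndufs8, a core subunit of complex I, had 127 CPM (KO-labelled) and 59.3 CPM (WT-labelled) from 59 and 56 UMIs, and among genes with at least 50 UMIs Cox7a2l was lowest with 216 and 291 CPM. The other lower genes there were Ndufaf7, from 5 KO-labelled and 28 WT-labelled UMIs, and Ndufaf4, from 4 and 18. By complex the ratio in B cell-like cells was 1.16 for complex I, 1.04 for complex III, 1.19 for complex IV and 1.08 for complex V. It was 0.936 (0.732 to 1.19) for complex II and 0.775 (0.645 to 0.929) for the assembly factors, of which Cox7a2l gave 100 of 167 KO-labelled and 275 of 439 WT-labelled UMIs. Depending on the setting, 7 to 22 of the genes were higher in B cell-like cells and 1 to 14 in monocyte-like cells.

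Genes were next counted by whether their log2 ratio lay above or below 0, whatever its size. Of the 82 genes measured in every class, 57 lay above 0 in more classes than below and 16 the reverse. The same count over all genes was not made, so this lean has no background to be read against. Ndufa11, Ndufc2, Uqcrb and Cox8a were higher in 11 of the 12 classes, choroid plexus-like cells being the exception for each. Uqcrc1, a core protein of complex III, lay below 0 in 10 of the 12 and was past the fold in 0. The classes come from the same 2 libraries and are not independent of each other. Choroid plexus markers were higher in the KO-labelled library in 11 of the 11 other classes (2540 to 9900 CPM KO-labelled, 1668 to 5586 CPM WT-labelled), and mural markers in 8 of 11. The part of this foreign RNA in the shared direction was not tested.

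The subunits encoded by mitochondrial DNA were set beside the nuclear-encoded ones. Both ratios were on the same side of 1 in choroid plexus-like, mural-like, astrocyte-like, fibroblast-like and neutrophil-like cells and on opposite sides in the other classes. The summed level of the mitochondrial subunits was lower in the KO-labelled library in 10 of 12 classes, and the nuclear ratio lay above the mitochondrial one in 11 of 12, choroid plexus-like cells being the exception (0.848 nuclear, 0.909 mitochondrial). In microglia-like cells the 13 mitochondrially encoded subunits had 21470 CPM (KO-labelled) and 22303 CPM (WT-labelled), a ratio of 0.963 (0.960 to 0.966). In B cell-like cells the ratio was 0.791 and in ependymal-like cells 0.888. In neutrophil-like cells both were higher, with 23309 CPM (KO-labelled) and 19071 CPM (WT-labelled) for the mitochondrial subunits, a ratio of 1.22 (1.204 to 1.24). Cells above 10% mitochondrial UMIs had been removed from both libraries. Over the 12 classes, which share their library and are not independent, the summed level of the 93 genes and the percent of mitochondrial UMIs had a Pearson correlation of 0.778 (KO-labelled) and 0.777 (WT-labelled), given as a description.

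**Figure D5:**
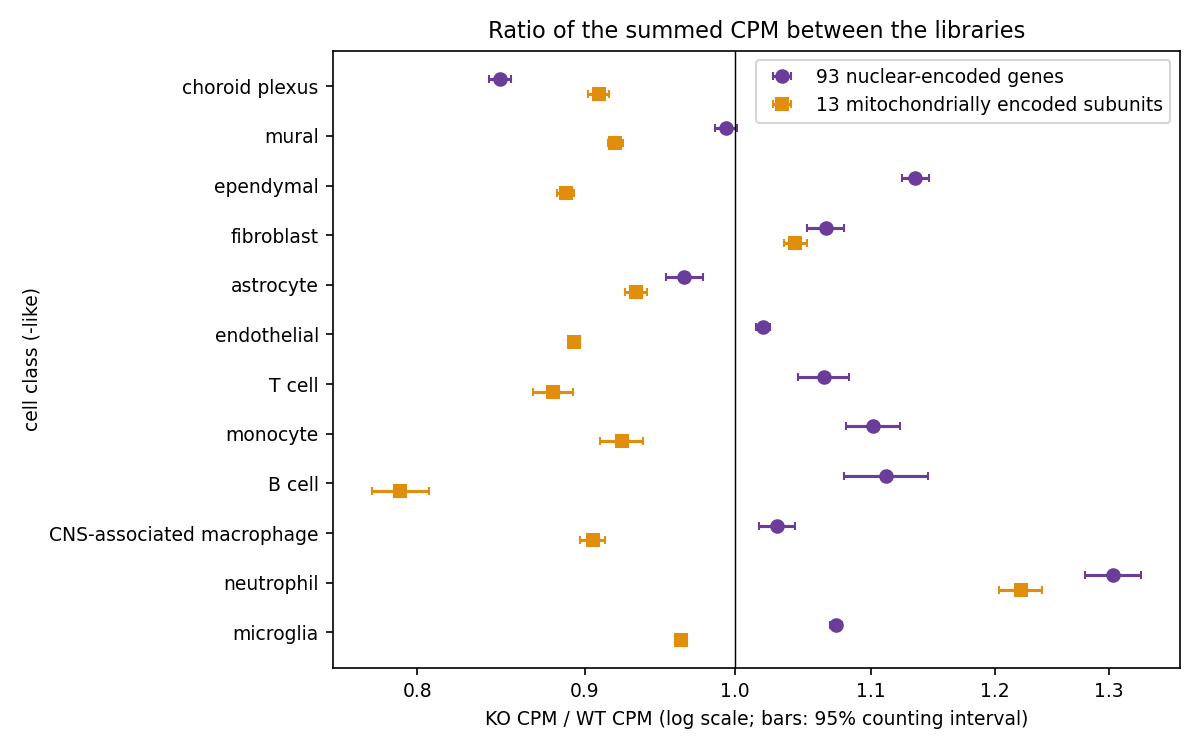
Ratio of the summed level, labelled KO over labelled WT, of the 93 nuclear-encoded genes and of the 13 mitochondrially encoded subunits in each of 12 cell classes, with 95% intervals for counting error. The nuclear ratio lies above the mitochondrial ratio in 11 of 12 classes; in choroid plexus-like cells it is 0.848 against 0.909.

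Other genes of energy metabolism were taken from fixed lists. Over all genes 9.97% were higher and 21.7% lower in neutrophil-like cells, and 2.37% higher and 7.22% lower in choroid plexus-like cells. In neutrophil-like cells Cycs and Cyc1 were both past the fold upward, with a summed ratio of 1.61 (1.32 to 1.96). Of 14 measured genes of the tricarboxylic acid cycle, to which complex II also belongs, 2 were higher and 0 lower there, with a summed ratio of 1.04. Of the 37 measured assembly factors outside the rule, 6 were higher and 2 lower. Import and outer membrane genes had a summed ratio of 1.21, with 1 of 12 past the fold.

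In choroid plexus-like cells 8 of 16 glycolysis genes were lower and 0 higher, and their summed ratio was 0.745 (0.727 to 0.763). Gapdh had 745 CPM (KO-labelled) and 1078 CPM (WT-labelled), Eno1 136 and 211 CPM, and Ldhb, a lactate dehydrogenase subunit, 671 and 927 CPM. None of the 14 tricarboxylic acid cycle genes passed the fold there, with a summed ratio of 0.871. Cycs and Cyc1 together had a ratio of 0.855, and 6 of 40 assembly factors outside the rule were lower and 0 higher. In microglia-like cells 1 gene of these lists passed the fold, Aldoc, with 17.5 CPM (KO-labelled) and 10.2 CPM (WT-labelled). The glycolysis genes there had a summed ratio of 0.926 and the tricarboxylic acid cycle genes 0.979.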

How the data were processed

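The authors deposited UMI counts for each gene and cell barcode as raw whole numbers; per the file headers, Cell Ranger 7.0.1 made them. STAR, Seurat 3.1.1 and the build GRCm38 (mm10) are named in the submitters' processing notes, and the annotation release and the numbers of mice are not given in the sources used here. Gene positions are from GENCODE for GRCm38, 1-based.

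A cell was kept if it had 300 or more genes, 500 or more UMIs and no more than 10% of UMIs from mitochondrial genes. Scrublet, as implemented in scanpy 1.11.5 with an expected rate of 0.8% per 1000 barcodes, called 724 (4.10%) KO-labelled and 244 (1.47%) WT-labelled doublets, which were removed, and doublets may remain. Counts were scaled to 10000 per cell, and 2000 variable genes without the 93 genes, 30 principal components, 15 neighbours and Leiden resolution 1 gave the clusters. A cluster was named from at least 3 detected markers of a class. UMIs were summed per class and library and divided by all UMIs of the class (CPM). Log2 ratios used 10 CPM as pseudocount. The calculation of ratios and intervals was checked on simulated counts. With 1 library per group no p-value was computed, and 0 columns of the tables were left unused.

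The genes, lists and settings were chosen with earlier results of these data known. Genes named in the text are the highest and lowest of each complex in microglia-like cells, the 5 highest and 5 lowest ratios in microglia-like and CNS-associated macrophage-like cells and the highest and lowest in every other class (at least 50 UMIs), the 10 with the widest class difference, and the paralogs. Alternatives to these settings, 14 planned and 4 added after seeing the data, are in the closing section. A gene among those the naming rule picks is not reported here.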

Additional observations from a re-analysis of the deposited data

Results flagged for a closer look

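Differences between classes were marked where the same gene, with at least 50 UMIs in each class, was past 1.3-fold in opposite directions in 2 classes, with counting intervals on opposite sides of 1. The summed ratio is given beside them for the classes with its highest and lowest value. None of these differences between classes was tested, since each group has 1 library, and no explanation was weighed. The values are log2 ratios of (KO-labelled CPM + 10) to (WT-labelled CPM + 10).

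Most of them set neutrophil-like against choroid plexus-like cells. Cox5b, a structural subunit of complex IV, had 0.58 in neutrophil-like and -0.42 in choroid plexus-like cells, and Cox6c 0.55 and -0.40. Cox7b had 0.68 in neutrophil-like and -0.41 in choroid plexus-like cells. Ndufs6, an accessory subunit of complex I, had 0.61 and -0.41, and Uqcrq of complex III had 0.49 and -0.44. The summed ratio of all 93 genes was 1.304 in neutrophil-like and 0.848 in choroid plexus-like cells, and the second value is not past 1.3-fold.

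Other pairs of classes gave 4 more genes. Uqcr11, a small subunit of complex III, had 0.56 in B cell-like and -0.40 in choroid plexus-like cells, and Ndufaf7 had 0.53 in monocyte-like and -0.59 in choroid plexus-like cells. Cox4i2 had 0.66 in astrocyte-like cells, from 62 KO-labelled and 17 WT-labelled UMIs, and -0.44 in mural-like cells. Cox7a2l had 0.42 in astrocyte-like and -0.42 in B cell-like cells. KO-labelled astrocyte-like cells also had more mural markers, as given above, and more microglial markers (5588 CPM KO-labelled, 3611 CPM WT-labelled). The part of these markers in the astrocyte-like values was not tested.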

How the results depend on the processing

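No paired analysis was possible because each group has 1 library. Of 252 leading values over all alternatives 195 stayed within their counting interval or within 1.5 times their count and 57 moved; of 2736 other values 2205 stayed, 529 moved and 2 reversed. Choroid plexus-like cells had the highest summed level under every alternative run, and microglia-like cells the lowest by the mean of both libraries except with cells weighted equally or thinned. Cells named one by one gave values for 7 classes only, neutrophil-like and CNS-associated macrophage-like cells not among them. The causes of these shifts were not tested.

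For choroid plexus-like cells the summed ratio was 0.791 with cells named one by one, 0.803 with the stricter filter on cells, 0.823 with doublet calls kept, 0.830 without cells rich in microglial markers, 0.861 with no filter on cells, 0.864 with cells weighted equally, 0.892 centred on the median of all genes and 0.910 without Ttr UMIs. The lower genes were 25 with cells named one by one, 30 with the stricter filter, 17 thinned to 1000 UMIs, 7 with no filter, 6 with a pseudocount of 50 CPM, and 4 both centred and without Ttr UMIs. The higher genes were 1 (main 0) with cells named one by one, thinned, weighted equally, with doublet calls kept, with a pseudocount of 1 CPM, without Ttr UMIs and without cells rich in microglial markers.

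For neutrophil-like cells the summed ratio was 1.11 weighted equally, 1.18 thinned, 1.21 without cells rich in microglial markers, 1.34 without mitochondrial, ribosomal and haemoglobin UMIs and 1.38 centred. The higher genes were 15 weighted equally, 15 with a pseudocount of 50 CPM and 19 thinned. The lower genes were 3 weighted equally, 5 thinned and 5 without cells rich in microglial markers.

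For microglia-like cells the summed ratio was 1.02 (median log2 ratio 0.021) weighted equally, 1.05 thinned, 1.06 named one by one and 1.08 with the stricter filter. The thinned cells had 1 higher gene, and a pseudocount of 1 CPM gave 1 lower gene. For CNS-associated macrophage-like cells the summed ratio was 0.957 thinned and 0.980 weighted equally, 1.01 without cells rich in microglial markers, 1.05 with the stricter filter, 1.06 with cluster 11 added, 1.07 with doublet calls kept and 1.08 at Leiden resolution 0.5. The higher and lower genes were 4 and 9 thinned, 3 and 2 weighted equally, 2 and 1 with 1 CPM as pseudocount, and 2 and 2 without cells rich in microglial markers. With the stricter filter, and without mitochondrial, ribosomal and haemoglobin UMIs, 1 gene was higher.

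In astrocyte-like cells named one by one, Ndufa4l2 had a log2 ratio of -0.37 and Atp5k 0.36, both opposite in sign to the values above.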

Other observations

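The mitochondrially encoded complex I subunit mt-Nd3 had the lowest KO-labelled over WT-labelled ratio of the 13 mitochondrial subunits in 10 of 12 classes and passed 1.3-fold downward in 8 of 12. Its log2 ratio ranged from -0.63 in B cell-like to -0.05 in neutrophil-like cells. In microglia-like cells mt-Nd3 had 420 CPM (KO-labelled) and 538 CPM (WT-labelled), and in endothelial-like cells 593 and 856 CPM. mt-Nd4 of the same complex ranged from -0.10 to 0.55 on the log2 scale.

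Aldoc, a brain aldolase and also an astrocyte marker, had the highest ratio of the glycolysis genes in 8 of 12 classes and passed the fold upward in 8 of 12. The exception in direction was its own class: astrocyte-like cells had 1593 CPM of Aldoc in the KO-labelled and 2029 CPM in the WT-labelled library. The KO-labelled library held 414 and the WT-labelled library 192 astrocyte-like cells, and the part of free RNA in the other classes was not tested.

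Nrf1 and Ppargc1a, regulators of respiratory genes named here after their values were seen, had different patterns over the classes. Nrf1, the transcription factor whose motif was searched in the promoters, had 83.9 CPM in KO-labelled and 77.5 CPM in WT-labelled microglia-like cells, against 18.3 and 22.8 CPM in choroid plexus-like cells. Ppargc1a, a coactivator of mitochondrial biogenesis, had 87.2 CPM (KO-labelled) and 83.4 CPM (WT-labelled) in ependymal-like cells and 30.3 and 33.2 CPM in choroid plexus-like cells. In microglia-like cells Ppargc1a had 0.732 CPM (KO-labelled) and 0.535 CPM (WT-labelled).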
